A study of Mus musculus with 6 samples.

Results

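Gli3 is the Gli transcription factor that acts mainly as a repressor where Shh signaling is low. The binding sites examined here are those of Gli3 around 9 genes of the Hes, Hey and Id families, which encode helix-loop-helix proteins of neural stem cells. The list from which they were taken came from wild-type mouse cerebral cortex at embryonic day 15, with 3 Gli3 ChIP libraries and 3 libraries of input DNA, which is chromatin taken without immunoprecipitation. No other genotype and no treatment entered, and a dissected cortex holds progenitors, neurons and other cells together, so a site cannot be placed in one of these cell types. The authors joined the replicates into 1 list of peaks with a chromosome, a start and an end, without height or p-value, so that there is no value per replicate, no error between embryos and no test between groups, and the read depth is unknown. Of the 4114 sites of the list, 21 (0.510%) had their midpoint in the gene body or within 100 kb of the transcription start site (TSS) of a member, taken from the GENCODE M21 gene model in mm10. They fell to 8 of the 9 genes. There were 12 sites at the 3 Hes genes, 2 at the Hey genes and 7 at the 4 Id genes, and no site was shared by several members.

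Hes and Hey proteins are basic helix-loop-helix repressors, most of which are switched on by Notch. The Notch receptor, once cleaved, joins the DNA-binding protein Rbpj at the promoters of these genes, and their products hold proneural genes such as *Neurog2* down, which keeps radial glial cells from differentiating. Id proteins have a helix-loop-helix but no DNA-binding basic region. They take E proteins away from the proneural factors, and BMP signaling through Smad proteins is a well known inducer of the genes. Both families are associated with radial glia and with astrocytes. Hes6 is an exception in its family, as it opposes Hes1 and favors neuronal differentiation.

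A few sequences from the sites and promoters are shown first. Among the 21 sites there was a single exact copy of the sequence GACCACCCA, the most conserved bases of the sequence that Gli proteins recognize, here called the GLI core. It lay upstream of *Id4*, on the plus strand at chr13:48229322-48229330, and is shown in capitals within chr13:48229297-48229355 of mm10.
Id4 upstream site: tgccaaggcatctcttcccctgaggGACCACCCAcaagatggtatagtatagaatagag
The sites over the TSSs of *Id2* and *Id4* held a word near their middle that differs from the core at 1 base, G1C, counted from 1 at the 5′ end of the core with the core's base first. Both are read on the minus strand, from chr12:25098339-25098397 and chr13:48262190-48262248, with that word in capitals.
Id2 TSS site: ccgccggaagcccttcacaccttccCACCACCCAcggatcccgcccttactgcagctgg
Id4 TSS site: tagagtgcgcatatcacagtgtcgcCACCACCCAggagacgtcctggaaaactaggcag
The promoters of 3 genes are given next as RefSeq places them in GRCm38.p6, from 250 bases before to 50 bases after the start. Among the promoters held for the group, they are those in which an Rbpj word was found. No promoter was held for *Hes1*, *Hey1* or *Id1*, so these genes were not searched. The promoters of *Hes5* and *Id4* lay wholly inside a Gli3 site, as did those of *Hes6*, *Id2* and *Id3*, and that of *Hey2* lay in none. The share over all mouse promoters is not given here. Capitals mark the Rbpj word TGGGAA, on either strand, and the word GGCGCC, which BMP-responsive Smad proteins can bind and which reads the same on both strands. The intervals are chr4:154960673-154960972 on the plus strand, chr13:48260866-48261165 on the plus strand and chr10:30842734-30843033 on the minus strand.
Hes5 promoter: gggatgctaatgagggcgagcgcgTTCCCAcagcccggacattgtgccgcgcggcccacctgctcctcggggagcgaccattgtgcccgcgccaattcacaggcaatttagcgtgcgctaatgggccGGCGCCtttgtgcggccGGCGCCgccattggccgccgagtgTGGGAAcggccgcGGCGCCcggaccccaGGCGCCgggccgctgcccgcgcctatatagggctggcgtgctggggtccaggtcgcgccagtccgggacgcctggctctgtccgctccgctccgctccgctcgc
Id4 promoter: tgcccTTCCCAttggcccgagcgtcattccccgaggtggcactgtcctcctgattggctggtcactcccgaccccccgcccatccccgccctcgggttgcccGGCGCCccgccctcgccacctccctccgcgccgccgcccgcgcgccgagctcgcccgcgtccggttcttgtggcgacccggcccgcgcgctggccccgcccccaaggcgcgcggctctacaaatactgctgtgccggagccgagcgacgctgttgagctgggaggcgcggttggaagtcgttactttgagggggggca
Hey2 promoter: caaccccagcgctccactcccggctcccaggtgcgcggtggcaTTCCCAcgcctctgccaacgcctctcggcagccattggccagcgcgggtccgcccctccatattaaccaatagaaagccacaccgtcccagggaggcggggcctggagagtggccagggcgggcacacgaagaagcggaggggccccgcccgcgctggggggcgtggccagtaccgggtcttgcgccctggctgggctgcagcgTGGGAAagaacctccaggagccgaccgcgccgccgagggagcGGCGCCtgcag

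Gli3 sites lay over the TSS of 7 of the 9 genes, namely *Hes1*, *Hes5*, *Hes6*, *Hey1*, *Id2*, *Id3* and *Id4*. Of the 21951 protein-coding genes on the chromosomes, 1364 (6.21%) had the TSS inside a site. *Id1* had its nearest site 18.3 kb away, and *Hey2* had none within 100 kb. When any distance up to 100 kb or a place in the gene body was counted, 8 of the 9 members had a site, against 8199 protein-coding genes (37.4%). Since the genes were put together with earlier results of these data known, the counts are a description and no p-value goes with them. Base composition at the GENCODE TSS varied among the members, from 42.0% GC at *Id2* to 83.0% at *Hey1*. It was taken in the 300 bases from 250 before the TSS. The value at *Id2* depended on the start used. At its RefSeq start, 1048 bp inside the GENCODE start, the *Id2* promoter had 63.3% GC. The median over all protein-coding TSSs was 55.0%, and the part of base composition in the count of sites over a TSS was not tested.

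**Figure D1:**
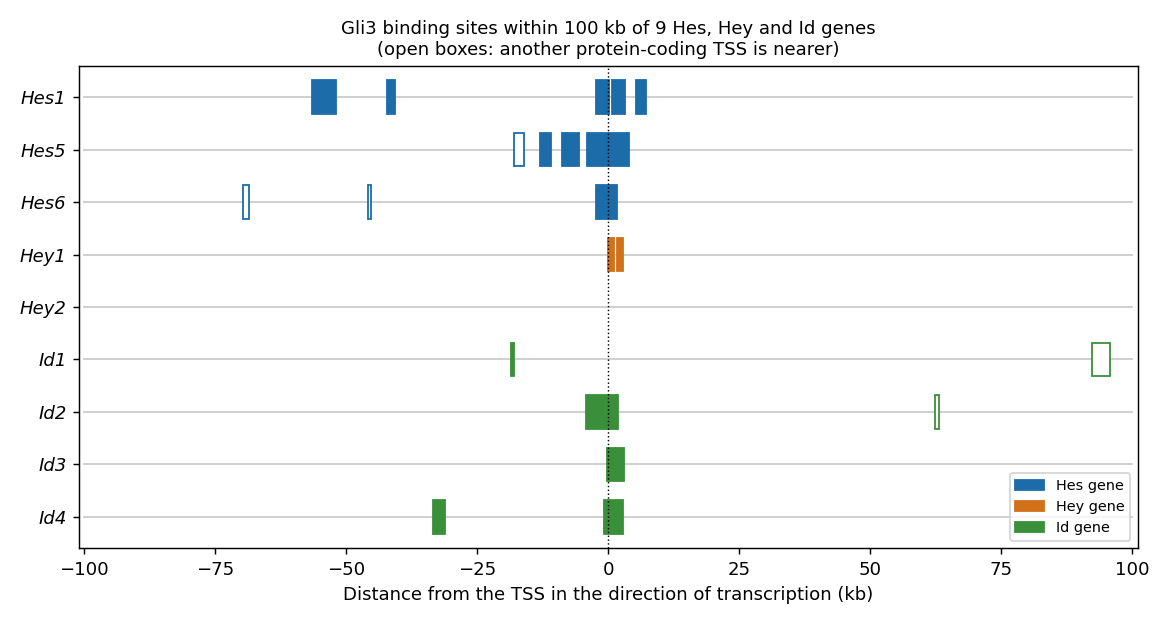
Gli3 binding sites within 100 kb of each gene, with the distance from the TSS in kb on the x axis, transcription running to the right and 1 row per gene. Filled boxes are sites whose nearest protein-coding TSS is the member's own (16 of 21), open boxes are the 5 sites with another protein-coding TSS nearer, and the row of *Hey2* is empty.

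*Hes1* and *Hes5* are the best known Notch targets of the group. Of the 3 families the Hes genes, with *Hes6* among them, had the most sites. These were 12, of which 9 had a Hes member as the nearest protein-coding gene. *Hes1* (ENSMUSG00000022528.8), the main Notch-induced repressor of radial glia, is on chromosome 16 (plus strand, 30064384 to 30067796). It had 5 sites, a number that 158 protein-coding genes (0.720%) reached or passed. The rule takes in the whole gene body, so a gene longer than 100 kb was searched over more sequence. The counts were not adjusted for this. No other protein-coding TSS was within 100 kb, the nearest being that of *Cpn2* at 203 kb, so that all 5 had *Hes1* as their nearest protein-coding gene.

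The site over the *Hes1* TSS spanned 30062008 to 30064593. It was 2586 bp long and reached from 2376 bp upstream to 209 bp downstream of the TSS, so that it covered 6.15% of the gene. A separate site of 2448 bp began 507 bp after its end, from 30065101 to 30067548, and covered 71.7% of the gene. These sites thus occupied the promoter and most of the body of *Hes1* with a short gap between them, and joining sites within 1 kb made them 1 region. The midpoint of the site in the gene body was 14 bp from another annotated *Hes1* TSS, so that this site also counted as a promoter site.

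Downstream of *Hes1*, in intergenic sequence, a site of 1984 bp ran from 30069625 to 30071608 with its midpoint 6.23 kb from the TSS. On the other side of the gene there were 2 distant sites. One, from 30022100 to 30023653, was 1554 bp long and 41.5 kb upstream, within an intron of *9030404E10Rik*, a gene for a long noncoding RNA. The other, from 30007770 to 30012377, was 4608 bp long and 54.3 kb upstream, with its midpoint 1406 bp from a TSS of the noncoding RNA gene *4632428C04Rik*. It was wider than the site over *Hes1* itself and fell at the 94.2 percentile of width in the whole list.

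*Hes5* (ENSMUSG00000048001.7) is a Notch target restricted largely to neural progenitors. It is on chromosome 4 (plus strand, 154960923 to 154962371) and had the widest site of the group, 8160 bp from 154956771 to 154964930. The site reached from 4152 bp upstream to 4007 bp downstream, so that its midpoint was 73 bp from the TSS and the whole gene of 1449 bp was inside it. Of the 1209 sites over a protein-coding TSS, 0.496% were at least as wide. The *Hes5* promoter printed above lay wholly inside this site, which also overlapped the neighboring gene *Pank4* and the transcript *Gm20421*. The TSS of *Pank4*, 3.20 kb from that of *Hes5*, was inside the site too, so its width cannot be credited to *Hes5* alone.

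A row of 3 further sites preceded *Hes5*. They were 3220 bp (154952005 to 154955224), 2212 bp (154947838 to 154950049) and 1805 bp (154942956 to 154944760) long, with midpoints 7.31 kb, 12.0 kb and 17.1 kb upstream. The gaps between neighbors were 1546 bp, 1955 bp and 3077 bp, counted outward from the site over the gene. All 4 sites thus lay within 20 kb of the TSS, in intergenic sequence except for the one over the gene, and the outermost was nearer to the TSS of *Tnfrsf14*, at 15.3 kb. *Hes1* and *Hes5* were the members with at least 4 sites, which 370 protein-coding genes (1.69%) had. Sites filled 13.2 kb of the sequence within 100 kb on either side of the *Hes1* TSS and 15.4 kb around that of *Hes5*.

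*Hes6* (ENSMUSG00000067071.8) is on chromosome 1 (minus strand, 91411483 to 91414038). Its TSS was inside a site of 4015 bp, from 91412305 to 91416319, which reached 2281 bp upstream and 1733 bp downstream and covered 67.8% of the gene. This site also overlapped the neighboring gene *Per2*. The other 2 sites in the window belonged by distance to other genes. One of 550 bp, 45.6 kb upstream, had its midpoint 349 bp from the TSS of *Per2*, a component of the circadian clock, and one of 1051 bp, 69.1 kb upstream, had its midpoint 142 bp from a TSS of the noncoding RNA gene *Gm28382*. With sites given only to the nearest protein-coding gene, *Hes6* thus kept 1 of 3, against 5 of 5 for *Hes1* and 3 of 4 for *Hes5*.

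Of the Hey genes, *Hey1* had sites and *Hey2* did not. *Hey1* (ENSMUSG00000040289.8) is on chromosome 3 (minus strand, 8663359 to 8667256), and its sites were narrow. The site from 8666277 to 8667264 was 988 bp long and began only 8 bp upstream of the TSS, from where it reached 979 bp into the gene. Of the sites over a protein-coding TSS, 93.5% were at least as wide. The other site, 1211 bp from 8664445 to 8665655, had its midpoint 2.21 kb downstream, in an exon, and was separated from the former by 621 bp. The latter was inside the gene, with its midpoint 1575 bp from the nearest TSS of a *Hey1* transcript.

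*Hey2* (ENSMUSG00000019789.9), a Notch target studied most in the cardiovascular system, is on chromosome 10 (minus strand, 30832359 to 30842801). The nearest Gli3 site was 603 kb from its TSS. The *Hey2* promoter printed above had a GC content of 72.0% and 2 Rbpj words, close to the 72.7% and 2 words of the *Hes5* promoter, which was inside a site. The promoters differed in the ratio of observed to expected CpG, 0.75 at *Hey2* against 1.04 at *Hes5*, and in GGCGCC words, 1 against 4. At the edge of the 100 kb window, the outermost site counted was the one 94.0 kb from *Id1*, and the first not counted was 100054 bp upstream of *Hey1*. This last site would enter if any overlap with the window were enough.

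**Figure D2:**
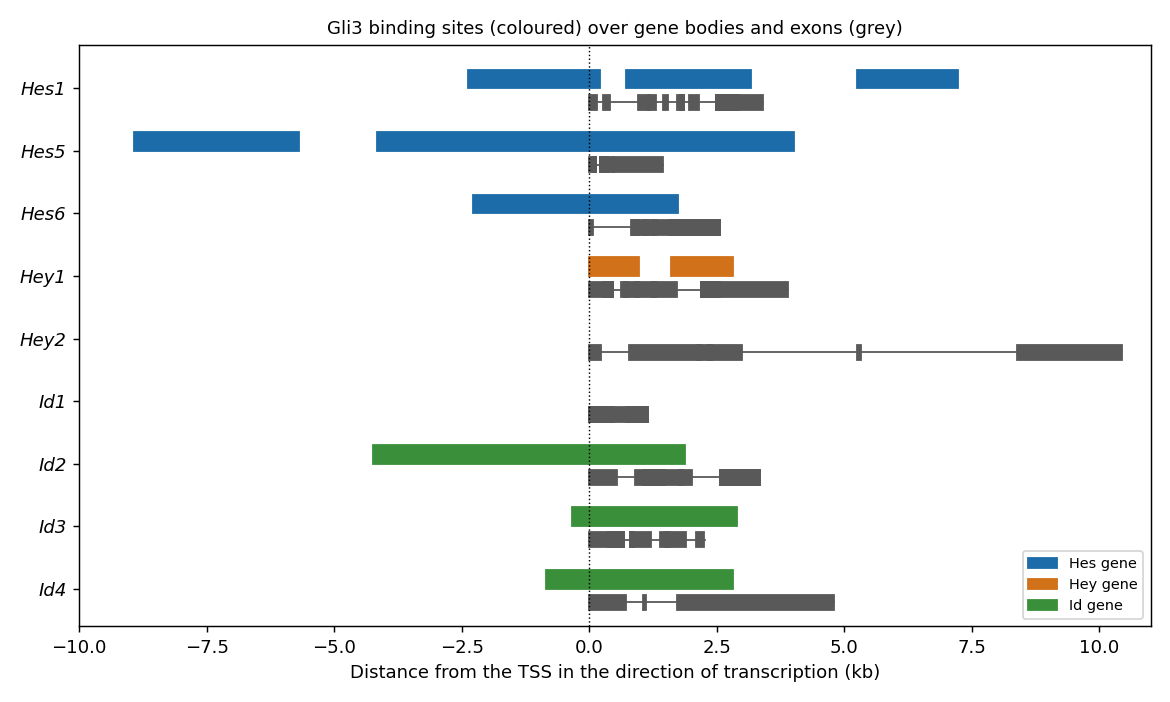
The same genes at closer range, with the distance from the TSS in kb on the x axis. Colored bars are Gli3 sites, grey boxes are exons of all annotated transcripts and grey lines are introns. The sites of *Hes5* and *Id3* contain the whole gene, that of *Hey1* starts almost at the TSS, and *Hey2* and *Id1* have no site in the range drawn.

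Among the Id genes, *Id2*, *Id3* and *Id4* had a site over the TSS and *Id1* did not. *Id2* (ENSMUSG00000020644.9) is on chromosome 12 (minus strand, 25093799 to 25097140). The site over its TSS, from 25095260 to 25101373, was 6114 bp long and at the 98.4 percentile of width in the list. It reached 4233 bp upstream and 1880 bp downstream and covered 56.3% of the gene. The RefSeq start of *Id2* is 1048 bp inside the GENCODE start, and its promoter was also wholly inside the site. A narrow site of 780 bp, 62.7 kb downstream, lay in an intron of *Kidins220*. The gene-level TSS of *Kidins220* was 59.6 kb from its midpoint, and another annotated *Kidins220* TSS was 15957 bp from it.

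*Id3* (ENSMUSG00000007872.3), on chromosome 4 (plus strand, 136143497 to 136145755), had 1 site. It was 3222 bp long, from 136143167 to 136146388, and reached from 330 bp upstream to 2891 bp downstream. It therefore covered all 2259 bp of the gene. *Hes5* and *Id3* were the members lying wholly inside a site, as were 35 of all protein-coding genes (0.159%). Both are short genes, and a short gene can lie inside a site more easily.

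*Id4* (ENSMUSG00000021379.2), expressed in cortical progenitors and astrocytes, is on chromosome 13 (plus strand, 48261228 to 48266026). A site of 3669 bp, from 48260374 to 48264042, covered its TSS, reaching 854 bp upstream and 2814 bp downstream, and 58.7% of the gene. The midpoint of this site was 980 bp from the *Id4* TSS and 383 bp from a TSS of the noncoding RNA gene *Gm49291*. A site of 2311 bp, from 48227721 to 48230031, lay 32.4 kb upstream in introns of the noncoding RNA genes *A330033J07Rik* and *Gm36346*. The nearest other protein-coding TSS, of *Zfp169*, was 252 kb from that of *Id4*, and both sites had *Id4* as nearest protein-coding gene.

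*Id1* (ENSMUSG00000042745.9) is on chromosome 2 (plus strand, 152736251 to 152737410). The site nearest to it, of 650 bp from 152717675 to 152718324, was in intergenic sequence 18.3 kb upstream and at the 4.79 percentile of width. The other site in the window, of 3393 bp, was 94.0 kb downstream in *Bcl2l1*, which encodes a survival factor of the Bcl2 family, and its midpoint was 59 bp from a TSS of that gene. *Id1* and *Hey2* were thus the members with no site in the gene or within 10 kb of the TSS.

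The sites over the 7 TSSs were set beside the others by width, the only measure of size that the list gives. They ranged from 988 bp at *Hey1* to 8160 bp at *Hes5*, with a median of 3669 bp, while the 1209 sites over any protein-coding TSS had a median of 2320 bp. The sites at *Hes5*, *Id2*, *Hes6*, *Id4* and *Id3* were among the widest 0.496%, 2.15%, 12.6%, 18.0% and 25.2% of those 1209 sites, and that of *Hes1* stood at 40.9%. The 14 other sites of the members ranged from 550 bp to 4608 bp with a median of 1894 bp, near the 1864 bp of all 2905 sites over no protein-coding TSS. Over all 21 sites the median was 2311 bp, against 1989 bp in the whole list, and 12 of the 21 were wider than the latter. These differences were not tested.

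The sites of the group had a median GC content of 54.5%, against 51.4% in the list, and a median ratio of observed to expected CpG of 0.55 against 0.30, where a higher ratio is typical of CpG islands. By position, 13 of the 21 (61.9%) had their midpoint within 2 kb of the TSS of some annotated transcript and were counted as promoter sites, against 45.6% of the 4099 sites on chromosomes. Of the other 8, 3 were in introns and 5 in intergenic sequence. The rule admits only sites in a gene body or within 100 kb of a TSS, and the whole list has no such limit. The sets are thus not matched in distance to genes. The differences in GC content, CpG ratio and promoter share were not tested. The GC content varied widely within the group, from 43.1% in the site in *Kidins220* to 62.5% in the site at *Per2* and 62.2% in the site over the *Hes1* TSS. The CpG ratio was 0.71 over the *Hes1* TSS, 0.83 over that of *Hey1* and 0.81 over that of *Id4*. It was lower upstream of *Hes5*, at 0.14 in the outermost and 0.24 in the other 2 intergenic sites, so that the sites in front of *Hes5* differed in composition from the one over the gene, where the ratio was 0.49.

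**Figure D3:**
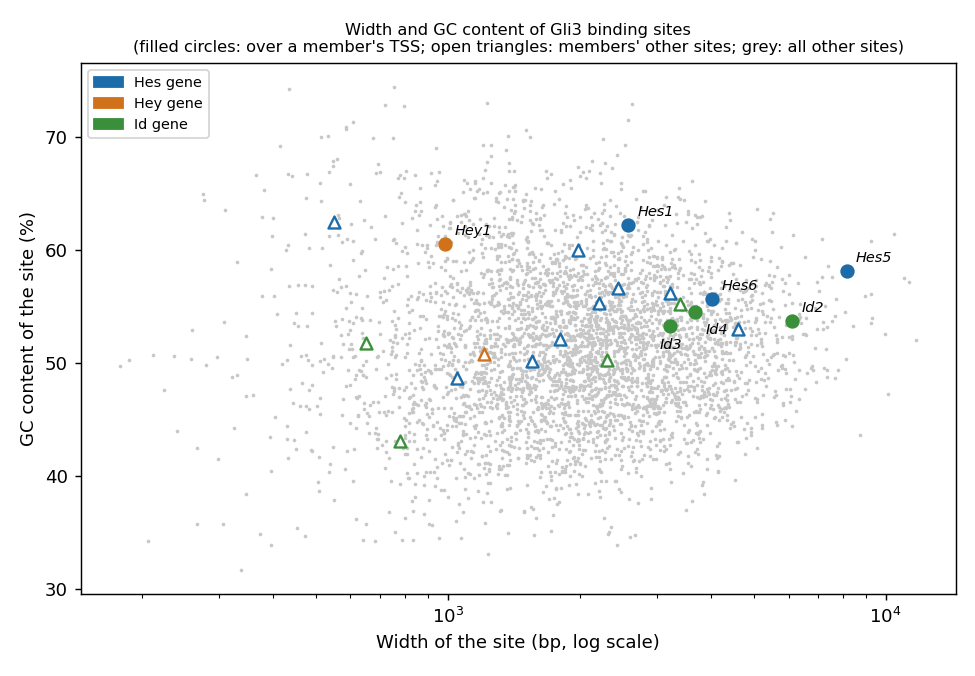
Width (x axis, bp on a log scale) against GC content (y axis, percent) of the Gli3 sites on chromosomes. Filled circles are the 7 sites over a member's TSS, open triangles are the other 14 sites of the members and grey points are all other sites. The circles of *Hes5* (8160 bp) and *Id2* (6114 bp) lie far to the right and that of *Hey1* (988 bp) to the left.

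The GLI core was then searched on both strands. It was present in 1 of the 21 sites (4.76%, 95% Wilson confidence interval 0.846 to 22.7%), the upstream site of *Id4*, against 502 of the 4099 sites on chromosomes (12.2%). The interval includes the share in the whole list, so that with 21 sites a lower share was not detectable. None of the 13 promoter sites of the group held it, and 9.30% of all promoter sites did. The Wilson interval for 0 of 13 reaches 22.8%. In regions of the same length on either side of the sites, 0 of 42 held the core, with a Wilson interval up to 8.38%. The intervals cover counting error over sites alone. The copy upstream of *Id4* lay 450 bp from the middle of its site and 31.9 kb from the TSS, and read in the direction of the gene. No core was found in any of the 12 sites at the Hes genes, which together span 34193 bp.

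With 1 mismatch allowed, 14 of the 21 sites held a match (64.7% of the whole list did), and the sites differed in number of matches. The site 94.0 kb from *Id1* and the site 7.31 kb upstream of *Hes5* had 6 each, the site over *Hes5* had 5, that over *Id2* had 4, and those over *Id4* and *Hes6* had 3 and 2. The sites over the TSSs of *Hes1* and *Hey1* had none. A match within 100 bp of the middle was present in 5 of the 21 sites (23.8%), against 13.1% of the list. The words printed above for *Id2* and *Id4* were among these, 52 bp and 11 bp from the middle of the site and 1228 bp upstream and 991 bp downstream of the TSS. The first 8 bases of the core were present in 5 of the 21 sites and in 20.4% of the list.

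Short words of other factors were counted in the RefSeq promoters, of which 7 were held for 6 of the members. These were *Hes5*, *Hes6* with 2 starts, *Hey2*, *Id2*, *Id3* and *Id4*. *Hes1*, *Hey1* and *Id1* had no entry. The 32851 mouse promoters of the table gave the background. Of the 7 promoters of the members, all but that of *Hey2* lay wholly inside a Gli3 site. The share over all promoters is not given here, and 6.21% of protein-coding genes had the gene-level TSS inside a site.

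The Rbpj word TGGGAA was present in the promoters of *Hes5* (2 copies), *Hey2* (2 copies) and *Id4* (1 copy), and 25.6% of all promoters held at least 1 and 3.79% at least 2. In *Hes5* the copies began at -226 and -82 from the RefSeq start, the former on the opposite strand. The Smad word GGCGCC was present 4 times in the *Hes5* promoter, beginning at -123, -106, -69 and -54. At least 4 copies were present in 18 of all promoters (0.0548%), and at least 1 in 11.9%. The word holds only G and C, the *Hes5* promoter had 72.7% GC, and the background was not matched in base composition. Several words were searched in each promoter, so the rarity of 1 of them was not tested. *Id2*, *Id4* and *Hey2* had 1 copy each, and *Id3* and both starts of *Hes6* had none. The word was thus not limited to Id promoters, nor to promoters inside a Gli3 site.

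The N-box CACNAG, a word bound by Hes proteins, had 2 copies at the inner start of *Hes6* and 1 each in *Id2* and *Id4*, and in 42.5% of all promoters. The E-box CAGCTG was present in *Id2* and at both starts of *Hes6*, against 16.3% of promoters, and CACGCG, another word of Hes and Hey proteins, in none of the 7 against 9.27%. No promoter of the 7 held the GLI core, which 0.253% of all promoters did. These words do not overlap in the promoters shown, and a match of so few letters does not mark a bound site.

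Other genes of the Notch pathway and of the helix-loop-helix network were compared by the same rule, in 5 lists of 42 genes in all. A site was present at 29 of them, against 37.4% of all protein-coding genes, and the TSS was inside a site at 10 (23.8%), against 6.21%. The closest relatives of the members, *Hes2*, *Hes3*, *Hes7*, *Heyl* and *Helt*, had sites at 4 of 5, but only *Heyl* had one over its TSS, of 1800 bp. *Hes3* had a site of 879 bp 2.50 kb into the gene. The sites of *Hes2* and *Hes7* were 55.0 kb and 59.3 kb away and nearer to other genes, and *Helt* had none.

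Among the 9 Notch receptors and ligands, 4 had a site (44.4%), a share near the 37.4% of all protein-coding genes. The receptor gene *Notch2* and the ligand gene *Jag1* had one over the TSS, of 3534 bp and 4418 bp. *Notch1* had a site of 4804 bp inside the gene, 14.3 kb from the TSS, and the 2 sites upstream of the ligand gene *Dll4* were nearer to other genes. *Notch3*, *Notch4*, *Dll1*, *Dll3* and *Jag2* had none. *Dll1* encodes a main ligand of cortical progenitors.

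Of the 15 effectors and modifiers, 10 had a site and 5 had one over the TSS. Among them were *Lfng*, encoding an enzyme that modifies Notch, *Maml3*, a coactivator, *Numbl*, an inhibitor, and *Dtx1*, a regulator of Notch turnover. *Lfng* and *Maml3* had 5 sites each, as many as *Hes1*, but 2 and 4 of them had the gene as the nearest, against 5 for *Hes1*. These counts too were not adjusted for gene length. *Nrarp*, a feedback inhibitor that is itself a Notch target, had 4 sites, of which the closest was 4.96 kb from the TSS, and *Rbpj* had 1, 57.4 kb into the gene. The sites of *Maml1*, *Mfng* and *Rfng* were all nearer to other genes. There was no site at *Maml2*, *Numb*, *Psen2*, *Adam10* or *Mib1*.

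The 5 groucho genes, whose products are corepressors recruited by Hes proteins, all had a site. *Tle3* had 6, one of them over the TSS, *Tle4* had 1 over the TSS, *Tle1* had 1 that was 3.65 kb upstream, and *Tle2* and *Aes* shared 1 that was nearer to *Tle2*. Of the 8 genes for E proteins and other bHLH partners, 6 had a site and none had one over the TSS. The proneural gene *Neurog2* had a site 7.13 kb upstream and *Neurog1* one 43.2 kb downstream that was nearer to another gene, while the E protein gene *Tcf12* had none. *Tcf4* had 3 sites in the gene, the closest beginning after the gene-level TSS, and that of *Tcf3* was nearer to another gene. *Olig1* and *Olig2* had 2 and 3 sites, the closest of them 33.0 kb and 32.8 kb away. The windows of these neighboring genes overlap, so that their counts share sites and cannot be added. Each gene had 1 site to which it was the nearest protein-coding gene.

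**Figure D4:**
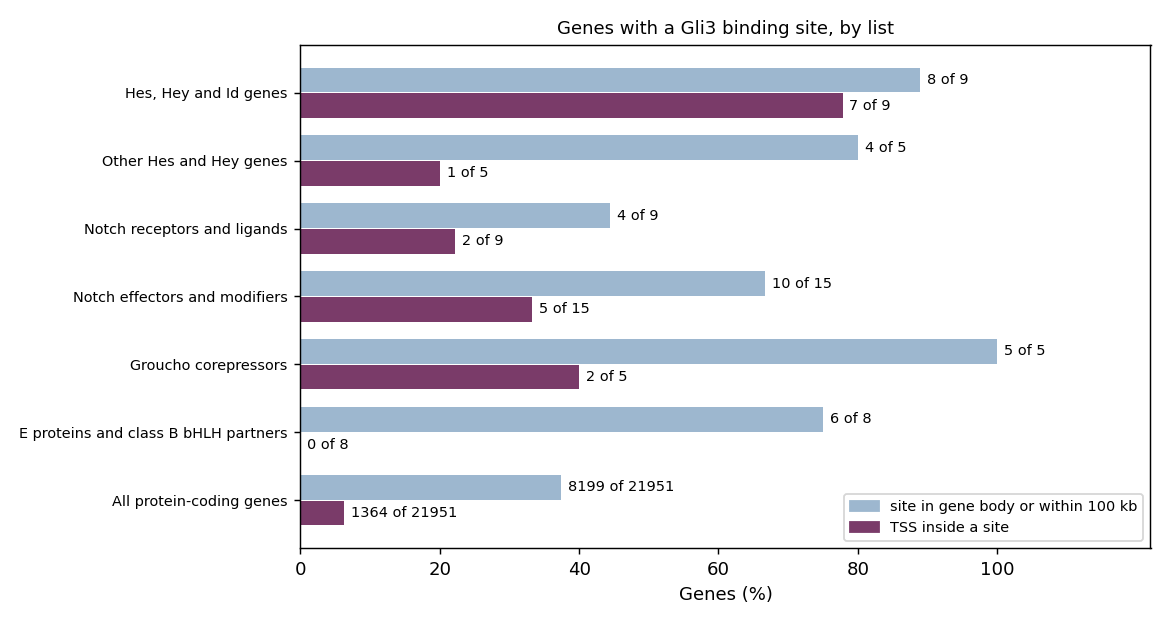
Percent of genes (x axis) with a Gli3 site in the gene body or within 100 kb of the TSS (light bars) and with the TSS inside a site (dark bars), for the Hes, Hey and Id genes, the 5 lists and all protein-coding genes. The numbers at the bars are counts of genes, and the dark bar is 7 of 9 for the members, between 0 of 8 and 2 of 5 for the lists, and 1364 of 21951 for all genes.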

How the data were processed

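Chromatin of wild-type cortices at embryonic day 15 was immunoprecipitated with a Gli3 antibody (3 libraries) beside 3 input libraries. Per the file header, the authors mapped reads of 85 bases from each end with bowtie2 to mm10 after a repeat filter and deposited the optimal peaks of an irreproducible discovery rate analysis. The submitters' processing notes also name SAMtools and MACS2. The study's text gives another total of sites than the deposited list, whose site names run from 1 to 4114 without a gap, and all counts and absences here refer to that list. Thresholds are not given in the sources used here, and a stricter threshold could not be tried, since no scores are held.

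Starts were made 1-based. A site was assigned to a gene by its midpoint, with GENCODE M21 genes and GRCm38.p6 sequence. Background counts covered all protein-coding genes on chromosomes. The members and the gene lists were chosen with earlier results of these data known. All members with every site, and the list genes with a site, were to be named; list genes without one were named after their values were seen. Some list genes were counted but are not reported here by name. Counting and motif search were checked on sequences with planted answers. Sequence was read with pysam 0.24.0, intervals were computed with scipy 1.17.1 and numpy 2.4.6, and plots were drawn with matplotlib 3.10.9, all under Python 3.11.15.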

Additional observations from a re-analysis of the deposited data

How the results depend on the processing

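The number of assigned sites was 21 and lay between 14 (20 kb window) and 22 (any overlap) under the other choices of distance, gene start, nearest gene and joining, and the number of members with a site was 8 in every alternative run. The count of members with a site over the TSS fell from 7 to 4 when the midpoint had to lie within 2 kb upstream of the TSS, because the midpoints at *Hey1*, *Id3* and *Id4* are downstream, and was 7 in the other alternatives. Promoter sites numbered 9 in place of 13 under each narrower definition. The number of sites with a GLI core was 14 with 1 mismatch allowed, 5 with its first 8 bases and 0 in the central 200 bp, in place of 1. No paired analysis was possible because the replicates were joined in 1 list, and for the same reason no replicate could be left out. The depth of the libraries is unknown, so that absence of a site, as at *Hey2*, says only that none was listed.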
